A study of Homo sapiens with 18 samples.

Results

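The genes described here are 35 genes of the lysosome and of autophagy, taken by their NCBI Gene IDs from a table of raw read counts with 28395 Gene IDs. They were listed by name, but with earlier results of these data known. The list covers 3 lysosomal membrane proteins, 10 hydrolases of the lysosomal lumen with the activator precursor PSAP, and 4 subunits of the proton pump. The rest are 3 transcription factors, 5 genes of autophagosome initiation, 6 genes of the ATG8 conjugation system and 3 autophagy receptors. They were measured in PC-3, an established human prostate cancer cell line, in 18 libraries that form 6 groups of 3. Static cells were detached and kept as a suspension. Sheared cells were, in addition, pushed through a 5 mL syringe with a 30 gauge needle at 250 microlitres per second. All 6 groups were in DMEM with insulin, transferrin and selenium and 5 mg/mL bovine serum albumin during the experiment, and were plated on poly-HEMA, a coating that prevents attachment. They were sampled 3 h, 12 h or 24 h after the exposure. Every group is thus detached, and no attached culture was analysed here. Each pool of cells gave 1 sheared and 1 static library, which carry the same replicate number, and every time has pools of its own. The 3 h samples carry another batch date than the 12 h and 24 h samples. Sequenced RNA was the cytosolic fraction of a mild detergent lysis.

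Lysosomes are acidic organelles in which hydrolases degrade material delivered by endocytosis and by autophagy. A proton pump, the V-ATPase, acidifies the lumen. In autophagy, the ULK1 kinase complex starts a membrane, ATG9A vesicles and WIPI proteins help it grow, ATG8 proteins are conjugated to its lipids, and receptors such as SQSTM1 link cargo to it. TFEB, TFE3 and MITF, the MiT/TFE family, can activate many lysosomal genes through an E-box motif and are held inactive when nutrients keep the mTORC1 kinase active at the lysosome. An mRNA level is not a measure of autophagic flux, because SQSTM1 and the ATG8 proteins are themselves degraded in the process.

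Libraries held 16400487 to 25862360 counts, which sets the precision of genes with few counts. Of the 35 genes, 33 had at least 43 counts in every library. HEXA, a subunit of beta-hexosaminidase, had 0 to 3 counts and was not tested, and ATP6V0A1, a V-ATPase subunit, had 1 to 15 counts and was tested only for shear. In HEXA, 10.1% of the exon bases lie over an antisense gene, 2.89% over HEXA-AS1, also antisense, and 4.89% over a protein-coding gene on the same strand. Whether any of these overlaps lowered its count was not tested. Why ATP6V0A1 had few counts was not tested either. All 7 markers of PC-3 and epithelial cells were detected, with a summed level of 3531 to 10810 CPM, counts scaled to library size. Of the prostate markers, KLK2 was at 0 in all libraries and KLK3 was at or near 0, while HOXB13, TMPRSS2 and FOLH1 were detected, with means of 134, 64.8 and 15 CPM in static cells at 3 h and 289, 71.4 and 33.2 CPM at 24 h. The 8 haematopoietic markers summed to at most 1.75 CPM. The sheared 24 h library of replicate 3 stood apart, with 28.2% of its counts in its 100 most abundant genes against 15.4% to 25.7% in the others, and a normalisation factor of 0.721 against 0.888 to 1.11. The calls at 24 h are therefore also given without that pool.

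The motif of the MiT/TFE family was looked for in the promoters, since the results on time in suspension concern lysosomal genes. RefSeq windows (GRCh38.p14) of 250 bases before to 50 after the start existed for 28 of the 35 genes. The letters CACGTG, a palindrome that reads alike on both strands, occurred in 6 of these 28 (21.4%), against 9.74% of 11904 promoters of tested genes and 7.43% of all 27305 promoters. Of the promoters of the other pathway genes described further on, 21 of 108 (19.4%) held it. The longer TCACGTGA, which contains it, occurred in 4 of the 28 (14.3%) and 9.26% of the 108 against 1.76% and 1.04%. The palindrome of 10 bases that adds a G before and a C after this one occurred in 1 (3.57%) and 5.56% of the 108 against 0.722% and 0.381%. A match describes the letters and is not evidence of binding. The best match of each of the 6 promoters follows on the gene's strand with the matched letters in capitals.
MCOLN1 (chr19:7522598-7522623, plus strand): gggctaccggGTCACGTGACcgaggc
CTSA (chr20:45891299-45891326, plus strand): gcgccggagtTCACGTGActcgtacaca
ATP6V0D1 (chr16:67481200-67481227, minus strand): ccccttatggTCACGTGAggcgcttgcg
LAMP1 (chr13:113297200-113297227, plus strand): acccgcgggaTCACGTGAcgcccgggcg
CTSD (chr11:1763959-1763984, minus strand): cggccgcgccCACGTGaccggtccgg
NEU1 (chr6:31862932-31862957, minus strand): gctgcgtgatCACGTGggaggagatg

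The LAMP1 promoter held 6 copies of CACGTG in its 300 bases, against 1 or 2 in the other 5. It is shown because LAMP1 is the 1 gene of the 6 that did not pass the test in static cells between 12 h and 24 h. The 250 bases before its start carry 5 of the copies, in capitals.
LAMP1 (chr13:113296989-113297238, plus strand): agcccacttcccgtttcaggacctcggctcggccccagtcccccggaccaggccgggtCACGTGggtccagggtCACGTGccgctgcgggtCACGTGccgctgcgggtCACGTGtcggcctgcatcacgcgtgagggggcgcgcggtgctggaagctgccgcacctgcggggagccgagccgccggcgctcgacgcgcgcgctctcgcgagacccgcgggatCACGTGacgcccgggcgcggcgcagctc

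Per transcript length, the most abundant of these mRNAs were PSAP, the precursor of the saposin activators, with a median over the libraries of 585 TPM, counts scaled to transcript length and library size, the aspartyl protease CTSD with 471 TPM and the carboxypeptidase CTSZ with 418 TPM. SQSTM1 followed with 233 TPM, LAMP1 with 182 TPM and LAMP2 with 118 TPM. The MiT/TFE factors differed widely in level: TFE3 had a median of 108 TPM, MITF 4.91 TPM and TFEB 3.41 TPM. Among the ATG8 proteins MAP1LC3B had 81.6 TPM, GABARAPL2 75.9 TPM and GABARAPL1 19.3 TPM. Between-gene levels rest on the exon length of GENCODE 29, and MAP1LC3B, GABARAPL1 and GUSB have near copies in the genome that could take or give reads.

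The fitted differences between sheared and static cells were within 1.5-fold for most of these genes, while single pairs could differ in opposite directions. At 24 h the log2 differences in replicates 1 to 3 were 0.33, -0.33 and 0.70 for OPTN and -0.57, 0.02 and 0.59 for CTSL. In edgeR's quasi-likelihood test with Benjamini-Hochberg adjustment over 15189 genes, 0 of 34 tested members passed an adjusted p of 0.05 at 3 h, where 1.46% of all genes did (1.12% higher and 0.342% lower). At 12 h 1 member passed, SQSTM1, which was lower (background 10.8%, with 6.29% of all genes higher and 4.55% lower). At 24 h 3 passed (background 17.2%, with 9.11% higher and 8.07% lower), of which ULK1 and SQSTM1 were lower and CTSB higher. The background moved with single pools: leaving out each of the 9 in turn, 70 to 304 genes were higher and 9 to 142 lower at 3 h, 196 to 1553 and 165 to 1138 at 12 h, and 941 to 1485 and 608 to 1397 at 24 h. Without replicate 3 of 24 h, 1 member was higher at that time, CTSB, and 3 were lower, PSAP (-0.46, adjusted p = 0.0244), ULK1 and SQSTM1. The median log2 fold change of the members was 0.01 at 3 h, -0.02 at 12 h and -0.01 at 24 h, beside 0.01, -0.01 and -0.02 for all genes. At 3 h, an unadjusted p under 0.05 was reached by 2 members, NEU1 and SQSTM1, both with higher means in sheared cells, and DESeq2 also called 0. Without ATP6V0A1, all 33 fold changes lay within 1.5-fold at 3 h and 12 h and 32 of 33 did at 24 h, with a median standard error of 0.13 on the log2 scale. In these bulk samples, fewer cells with an mRNA and less of it per cell cannot be told apart. On simulated counts, the test recovered 44.8%, 40.3% and 25.4% of 1.5-fold changes at 3 h, 12 h and 24 h, so changes of that size could be missed. The simulations gave 153, 146 and 131 calls at these times, where 222, 1647 and 2609 genes passed in the data. The adjusted p depends on how many genes pass, so the shares at 12 h and 24 h do not give the recovery in the data.

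**Figure D1:**
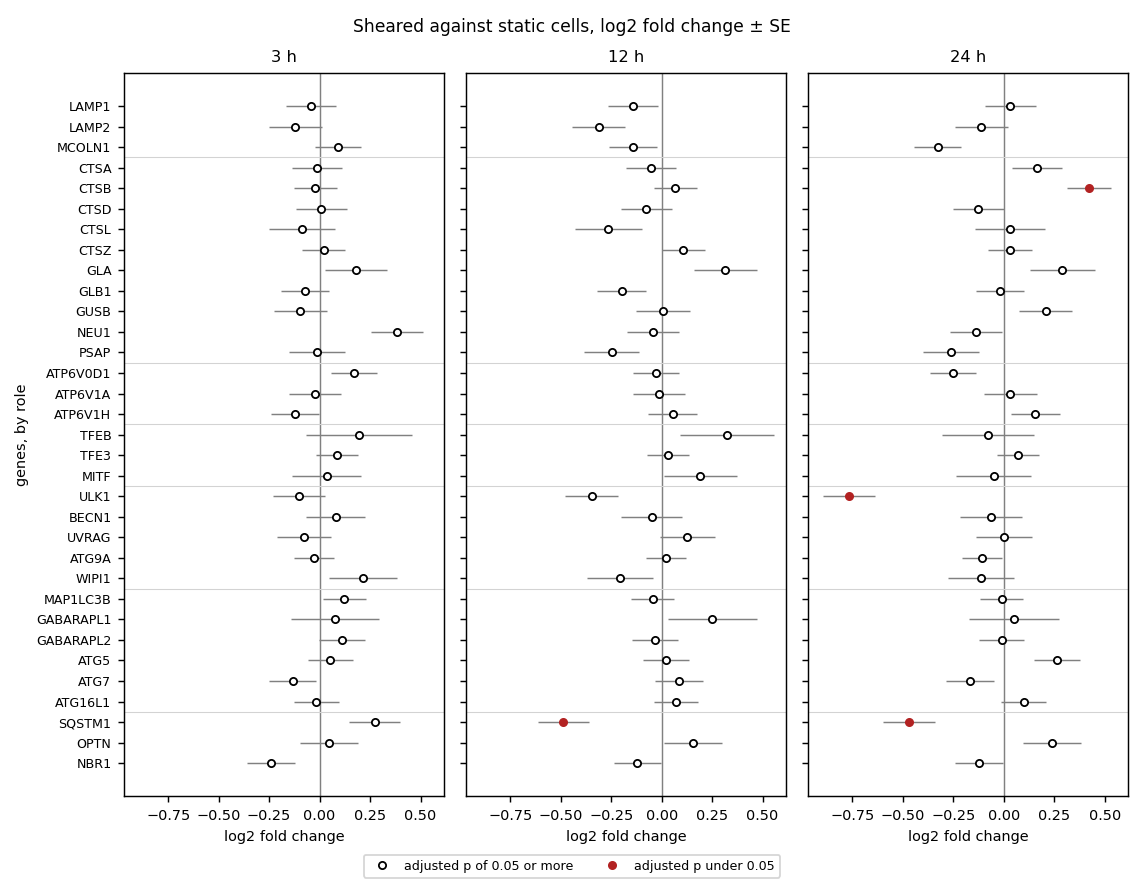
Log2 fold change of sheared over static cells (x axis) for 33 genes ordered by role (y axis), with 1 panel per time. Points are fitted values, bars are ± 1 standard error, and filled points passed an adjusted p of 0.05: SQSTM1 at 12 h, and CTSB, ULK1 and SQSTM1 at 24 h.

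SQSTM1 encodes a receptor that binds ubiquitylated cargo and ATG8 proteins. At 3 h its CPM was 438, 419 and 446 in static replicates 1 to 3 and 488, 496 and 598 in their sheared partners. At 12 h it was 388, 387 and 442 against 300, 298 and 271. At 24 h it was 772, 827 and 595 against 513, 494 and 565. The sheared values were thus above all static ones at 3 h and below all static ones at 12 h and at 24 h. The fitted log2 fold change was 0.27 (SE 0.13, adjusted p = 0.519, edgeR) at 3 h, -0.49 (SE 0.13, adjusted p = 0.02) at 12 h and -0.47 (SE 0.13, adjusted p = 0.017) at 24 h. All 3 pairs had the same direction at each time. In a fit of the 3 h libraries alone SQSTM1 passed at 3 h (0.27, adjusted p = 0.00317). That fit tested 14470 genes, and the share of them that passed is not given here. The effect at 12 h minus that at 3 h was -0.76 (SE 0.18, adjusted p = 0.0406), the 1 member called in this contrast (background 1.41%, or 214 genes, and 59 to 636 with 1 pool left out). The call for 12 h minus 3 h was lost when any single pool of these times was left out, where the adjusted p was 0.113 to 0.238. The 12 h call was lost when any single 12 h pool was left out (adjusted p 0.0724 to 0.129) and without pool blocking (0.0663). The 24 h call was lost without replicate 1 (0.0982) or replicate 2 (0.116) of that time and in a fit of the 24 h libraries alone (0.118), and the value was -0.65 without replicate 3 (adjusted p = 0.00119). In the annotation 20.7% of SQSTM1's exon bases overlap MRNIP on the opposite strand, and the strand setting of the counting is not given in the sources used here.

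ULK1 encodes the kinase that starts autophagosome formation. Its CPM at 3 h was 62.4, 68.9 and 73.1 in static cells and 62.3, 58.3 and 70.1 in sheared cells. At 12 h it was 155, 148 and 184 against 125, 138 and 119. At 24 h it was 307, 250 and 268 against 216, 159 and 121. The groups overlapped at 3 h and were apart at 12 h and 24 h, with the sheared libraries lower. The log2 fold change was -0.10 (SE 0.13, adjusted p = 0.91) at 3 h, -0.35 (SE 0.13, adjusted p = 0.095) at 12 h and -0.77 (SE 0.13, adjusted p = 0.000595, edgeR) at 24 h, a level 0.587 times that of static cells. The 24 h call held in all 15 alternatives, with values from -0.93 to -0.56. The latter came without replicate 3 of 24 h, the pool of the library that stood apart, with an adjusted p of 0.00606. At 12 h ULK1 passed without that pool (adjusted p = 0.0273) and with scaling to total counts (adjusted p = 0.0248). The difference of the effect between 24 h and 12 h, -0.42 (SE 0.18, adjusted p = 0.534), did not pass, nor did that of any other member (0 of 34, background 0.665%, edgeR and DESeq2), with 2 at an unadjusted p under 0.05.

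CTSB encodes cathepsin B, a cysteine protease. At 24 h its CPM was 117, 136 and 208 in static cells and 170, 162 and 287 in their sheared partners. Every pair was higher when sheared, although the groups overlapped, with replicate 3 the highest in both. The log2 fold change was 0.42 (SE 0.11, adjusted p = 0.0125, edgeR). It was 0.36 without replicate 1 of that time (adjusted p = 0.0773), 0.42 without replicate 3 (adjusted p = 0.0348), 0.43 without pool blocking (adjusted p = 0.268) and in a fit of the 24 h libraries alone (adjusted p = 0.113), and 0.26 with scaling to total counts (adjusted p = 0.0698). At 3 h and 12 h the values were -0.02 and 0.07, with static libraries at 113 to 152 and sheared ones at 113 to 146 over both times. In the authors' deposited table for 24 h, CTSB had a log2 fold change of 0.44 and an adjusted p of 0.249, ULK1 -0.72 and 0.00264, and SQSTM1 -0.47 and 0.0204.

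**Figure D2:**
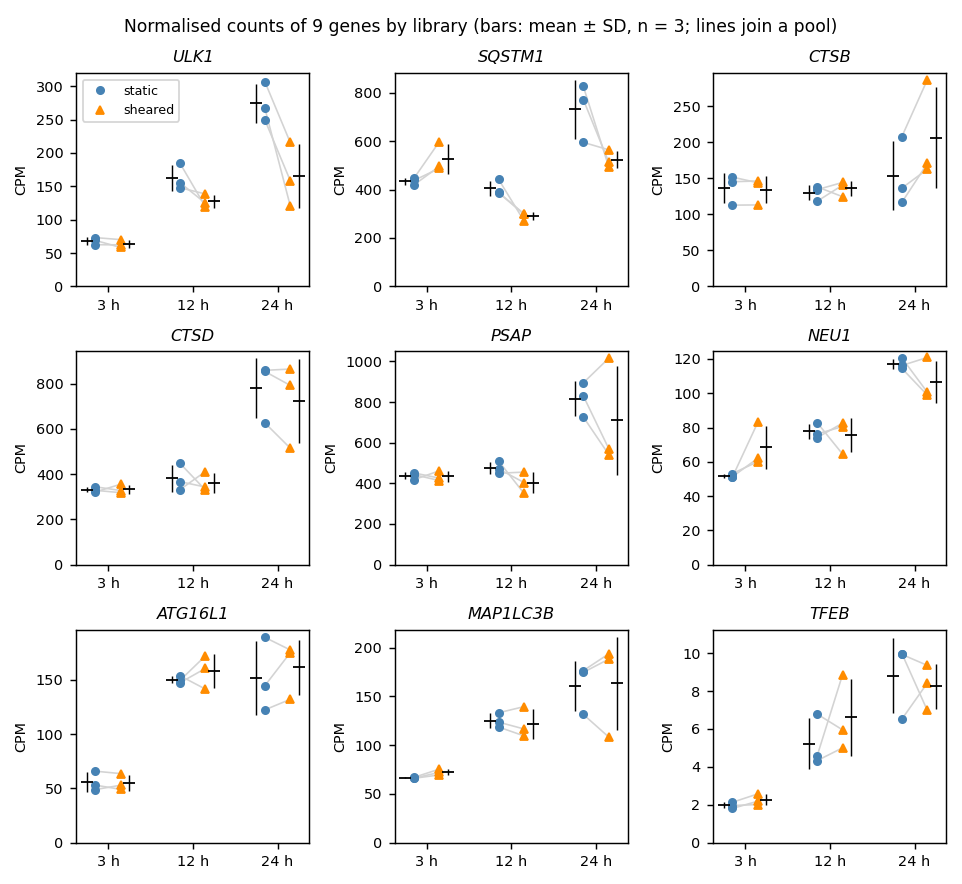
CPM (y axis, from 0) by time (x axis) for 9 genes, with circles for static and triangles for sheared libraries and lines joining libraries of 1 pool. Bars are mean ± SD (n = 3); the 3 sheared ULK1 values at 24 h, 121 to 216, lie below the static ones, 250 to 307, and CTSD and PSAP sit higher at 24 h than at 3 h in both treatments.

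Beside these results, other RNAs also moved with shear, and their part in them was not tested. The 8 markers of fibroblasts and endothelium summed at 3 h to 26.5 to 33.7 CPM (static) and 45.3 to 46.2 CPM (sheared), at 12 h to 103 to 116 CPM and 63.7 to 80.2 CPM, and at 24 h to 110 to 149 CPM and 81.7 to 117 CPM. Of the 4 tested, COL1A1, a collagen chain, was higher at 3 h (1.19, adjusted p = 0.000298, edgeR) and lower at 24 h (-0.48, adjusted p = 0.0471), and PECAM1 was lower at 12 h. For COL1A1 the effect at 12 h minus that at 3 h was -1.61 (adjusted p = 0.00113), of the same sign as the contrast of SQSTM1. The 7 markers of PC-3 and epithelial cells summed to 4836 to 5066 CPM against 4063 to 5504 CPM at 12 h and to 6469 to 9321 CPM against 6635 to 10810 CPM at 24 h. Of these, the keratin KRT8 was higher at 12 h (0.59, adjusted p = 0.00689), and the cadherin CDH1 was lower at 12 h (-0.51, adjusted p = 0.00709) and at 24 h (-0.49, adjusted p = 0.00576). The 7 markers of androgen-dependent prostate cells summed to 255 to 316 CPM against 179 to 219 CPM at 12 h, and 357 to 421 CPM against 181 to 285 CPM at 24 h. In this list HOXB13 was lower at both times, FOLH1 was also lower at 24 h, and KLK3 was at or near 0 throughout. The nuclear RNA MALAT1 at 3 h was at 23.9 to 29.5 CPM (static) and 14.4 to 15.1 CPM (sheared) without passing the test (adjusted p = 0.778), and at 7.15 to 68.3 CPM in sheared cells at 24 h.

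None of the other 31 tested members passed for shear at any time. Among lysosomal membrane proteins, LAMP1, an abundant glycoprotein of that membrane, had log2 fold changes of -0.04, -0.14 and 0.03 at 3 h, 12 h and 24 h, and LAMP2, its relative, -0.12, -0.31 and -0.11. MCOLN1, the lysosomal calcium channel, was at 69.5, 83.7 and 75.3 CPM in static 24 h cells and at 56.7, 73.6 and 53.1 CPM in sheared ones. Each pair was lower when sheared, and the groups overlapped (log2 fold change -0.33, SE 0.12, adjusted p = 0.0609).

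Among hydrolases, NEU1, a sialidase, was at 53.1, 51.2 and 51.1 CPM in static and 60.1, 62.1 and 83 CPM in sheared cells at 3 h. The groups did not overlap, and replicate 3 had the highest sheared value. The log2 fold change of NEU1 was 0.39 (SE 0.13, adjusted p = 0.227). NEU1 passed in a fit of the 3 h libraries alone (0.38, adjusted p = 0.00701), for which the share of all genes passing is not given. GLA, alpha-galactosidase A, was at 26, 21.8 and 20.5 CPM in static and 26.5, 27.6 and 30.4 CPM in sheared cells at 12 h, apart by a small margin (0.32, SE 0.16, adjusted p = 0.209). CTSD had -0.13 and PSAP -0.26 at 24 h, each with a standard error of 0.13 to 0.14. Sheared PSAP values at 24 h spread widely, at 542, 570 and 1016 CPM, the last in the library that stood apart.

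Among V-ATPase subunits, ATP6V0D1, of the membrane sector, had log2 fold changes of 0.17, -0.03 and -0.25 at 3 h, 12 h and 24 h. ATP6V1A, the catalytic subunit, had -0.02, -0.01 and 0.03, and ATP6V1H, a regulatory subunit, -0.12, 0.05 and 0.16. These 3 thus lay between -0.25 and 0.17 at all times. ATP6V0A1 was at 0.0421 to 0.844 CPM in all libraries and its values, 0.34, 0.92 and 0.69, had standard errors of 0.66 to 0.85.

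The MiT/TFE factors did not pass at any time. TFEB had 0.20, 0.33 and -0.08, with standard errors of 0.23 to 0.26, since its libraries held 43 to 195 counts. TFE3 had 0.09, 0.03 and 0.07 with a standard error of 0.10, and MITF 0.03, 0.19 and -0.05.

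Of the autophagy genes other than ULK1 and SQSTM1, MAP1LC3B, which encodes LC3B, had 0.12, -0.04 and -0.01, and GABARAPL2 0.11, -0.03 and -0.01. ATG16L1, which places the conjugation complex on the membrane, had -0.02, 0.07 and 0.10. ATG5, its partner, had 0.05, 0.02 and 0.27, and ATG7, the activating enzyme of the conjugation, -0.13, 0.09 and -0.17. BECN1 and UVRAG, of the lipid kinase complexes, stayed between -0.08 and 0.13. OPTN, a receptor for ubiquitylated mitochondria and bacteria, reached 0.24 at 24 h (adjusted p = 0.275), and NBR1, a receptor related to SQSTM1, -0.24 at 3 h (adjusted p = 0.57). At 3 h all sheared NBR1 values (58.2, 64.1 and 68 CPM) lay below the static ones (72.8, 79.4 and 72.6 CPM). NBR1 passed in a fit of the 3 h libraries alone (adjusted p = 0.023), again without the share of all genes passing. Groups that did not overlap were seen for 6 members at 3 h, 4 at 12 h and 3 at 24 h, where 18.8%, 29% and 15.1% of all genes did so.

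The other genes of the pathway form 7 lists with 140 genes. Of 139 tested, 0 passed at 3 h, 12 (5 higher, 7 lower) at 12 h and 28 (13 higher, 15 lower) at 24 h, or 8.63% and 20.1% beside 10.8% and 17.2% of all genes. TMEM41B, a lipid scramblase needed for autophagosome formation, was lower at 12 h (-0.60, SE 0.11, adjusted p = 0.00274) and at 24 h (-0.61, SE 0.11, adjusted p = 0.00102). Of 31 genes of core autophagy machinery, 2 rose and 4 fell at 24 h, among the latter AMBRA1 (-0.55), which acts upstream with ULK1, and the lipid transfer protein ATG2B (-0.65). Of 18 other lysosomal membrane proteins, 0 rose and 5 fell, among them the cystine exporter CTNS (-0.91) and the ion channel TPCN1 (-0.48). Of 32 other hydrolases 5 rose and 1 fell. The first include cathepsin H (CTSH, 0.46), and the 1 that fell was acid phosphatase ACP2 (-0.72). In mTORC1 and nutrient sensing, 4 rose and 4 fell, with RHEB, the activator of mTORC1, at 0.50 and its subunit MLST8 at 0.42 on the higher side and FNIP2 at -0.79 on the lower. Without the pool of the 24 h library that stood apart, 2 of the 139 were higher and 13 lower at 24 h, and the 32 hydrolases had 0 higher and 4 lower, the 31 genes of core machinery 0 and 2, the 18 membrane proteins 0 and 3, and nutrient sensing 2 and 1. ATG2B (-0.53, adjusted p = 0.0737), TPCN1 (-0.26, adjusted p = 0.298) and CTSH (0.35, adjusted p = 0.12) did not pass there, and TMEM41B, AMBRA1, CTNS, ACP2, RHEB, MLST8 and FNIP2 did. RHEB and MLST8 were also higher at 12 h (0.42 and 0.41), and DEPTOR, an inhibitor of mTORC1, was lower there (-1.07). DEPTOR was lower at 24 h as well (-1.10, adjusted p = 0.0144, edgeR). It did not pass at 24 h without the pool of the library that stood apart (-1.03, adjusted p = 0.0565).

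**Figure D3:**
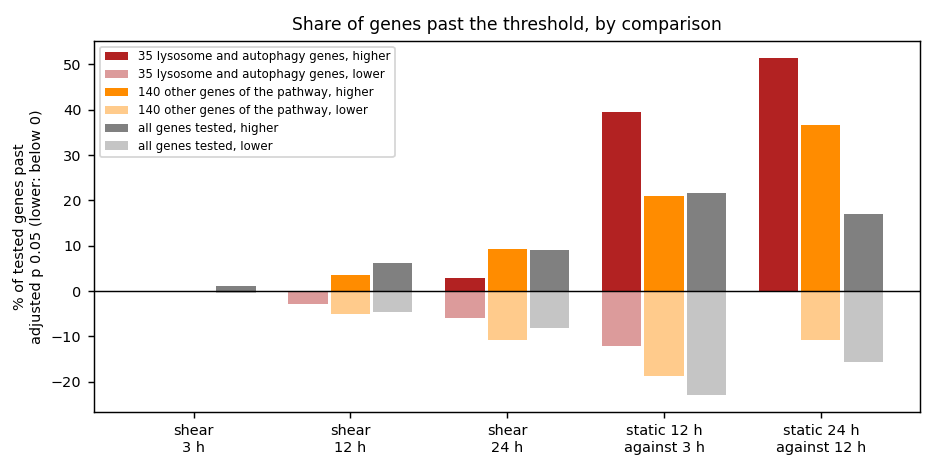
Percent of tested genes past an adjusted p of 0.05 (y axis, higher above 0 and lower below 0) in 5 comparisons (x axis), for the 35 genes, 140 other genes of the pathway and all genes tested. Under shear the members' bars are at or below those of all genes; in static cells from 12 h to 24 h the bar of higher members reaches 51.5% beside 16.9% of all genes.

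Between times, the static values of the members covered a wider range, from -0.83 to 1.42 for 12 h against 3 h and from -0.38 to 1.02 for 24 h against 12 h on the log2 scale. From 3 h to 12 h in static cells, 17 of 33 tested members passed (51.5%, background 44.7%), 13 of them higher and 4 lower, where 21.7% of all genes were higher and 22.9% lower. The batch date differs between these times in the same way, so time and batch cannot be told apart in this comparison. The PC-3 marker sum was 3531 to 3948 CPM at 3 h and 4836 to 5066 CPM at 12 h, but its markers moved in both directions. Mean KRT19 was 778 CPM at 3 h and 2421 CPM at 12 h, and mean VIM 64.7 and 286 CPM. Means of CDH1 (268 and 292.5 CPM) and CD44 (256 and 311 CPM) were also higher at 12 h. Those of KRT8 (1175 and 778 CPM), KRT18 (847.5 and 553.5 CPM) and EPCAM (381 and 302 CPM) were lower. The fibroblast and endothelial markers, PDGFRB and VWF among them at or near 0, summed to 26.5 to 33.7 CPM at 3 h and 103 to 116 CPM at 12 h, with 2 of 4 tested, PECAM1 and COL1A1, passing. The nuclear RNA NEAT1 was also higher (1.01), and the part of these RNAs in the members' values was not tested.

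The autophagy genes made up most of the higher ones. ATG16L1 was at 49, 53.1 and 65.9 CPM at 3 h and 150, 147 and 154 CPM at 12 h in static cells (log2 fold change 1.42, SE 0.16, adjusted p = 1.89e-06, edgeR). ULK1, with the values given above, rose by 1.25 (SE 0.13, adjusted p = 1.15e-06). WIPI1, which binds the lipid of the growing membrane, was at 18.1, 21.1 and 22.1 CPM at 3 h and 44.9, 39.6 and 43 CPM at 12 h (1.05, SE 0.16, adjusted p = 4.67e-05). For all 3 genes each 12 h library lay above each 3 h one. The share of all genes without overlap is not given for this comparison, where 44.7% of all genes passed the test. The separation therefore does not by itself set these 3 genes apart. Of the 6 genes of ATG8 proteins and their conjugation, 5 rose and 1, ATG7, fell (-0.48). MAP1LC3B went from 66.2, 66.1 and 67 CPM to 133, 124 and 119 CPM (0.91, SE 0.13, adjusted p = 2.86e-05), GABARAPL2 changed by 0.75, GABARAPL1 by 0.46 and ATG5 by 0.38. The last 2 lost the call without single libraries (adjusted p up to 0.208 and 0.164). ATG9A, the scramblase of the seed vesicles, rose by 0.68, and 38.8% of its exon bases overlap AC068946.2 on the same strand. Of the receptors, OPTN rose by 0.93 and NBR1 by 0.48, while SQSTM1 had -0.10 (adjusted p = 0.55). BECN1 (0.04) and UVRAG (-0.28, adjusted p = 0.0827) did not pass.

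All 3 MiT/TFE factors changed, in different directions. TFEB was at 1.81, 1.97 and 2.14 CPM at 3 h and 4.33, 4.58 and 6.79 CPM at 12 h (1.41, SE 0.25, adjusted p = 0.00024). TFE3 went from 79, 82.5 and 85.8 CPM to 133, 128 and 130 CPM (0.66, SE 0.11, adjusted p = 0.000142). MITF went from 15.1, 17.3 and 12.8 CPM down to 9.22, 8.13 and 8.13 CPM (-0.83, SE 0.17, adjusted p = 0.000694). For each factor the 3 h and 12 h libraries did not overlap, again without a share of all genes to set beside it. As 44.7% of all genes passed the test in this comparison, the separation does not by itself set these factors apart.

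Fewer lysosomal genes passed over this interval, and no test was made of the difference from autophagy genes. Of 10 tested hydrolases and PSAP together, NEU1 rose (0.58), the cysteine protease CTSL fell (-0.57, and without passing in the fit of all 18 libraries as group means, adjusted p = 0.0547) and GLA fell (-0.42, adjusted p = 0.0396, up to 0.2 without single libraries). None of the 3 membrane proteins passed, with values of -0.08 to -0.02, and none of the 3 tested V-ATPase subunits, with -0.20 to 0.00. In a fit of all 18 libraries as group means, 11 members rose and 2, MITF and ATG7, fell.

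From 12 h to 24 h, which share a batch date, static cells had 17 of 33 tested members higher and 0 lower (background 32.5%, with 16.9% higher and 15.6% lower). DESeq2 gave the same counts, and at an unadjusted p under 0.05 the counts were 18 and 1. The members' median log2 fold change was 0.35, beside 0.01 for all genes. At 24 h, 17 members lay above all of their 12 h values and 0 below, where 42.5% of all genes did not overlap (22.1% higher and 20.5% lower). The number higher fell to 11 without replicate 1 or 2 of 12 h or replicate 3 of 24 h, and to 10 with scaling to total counts, which also put CTSL, GLA and ATG5 on the lower side. That scaling moved the median of all genes to -0.18, with the members' median at 0.16. On simulated counts 20.9% of 1.5-fold and 73.1% of 2-fold changes were recovered here. That simulation gave 134 calls, where 4805 genes passed in the data. The adjusted p depends on how many genes pass, so these shares do not give the recovery in the data.

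**Figure D4:**
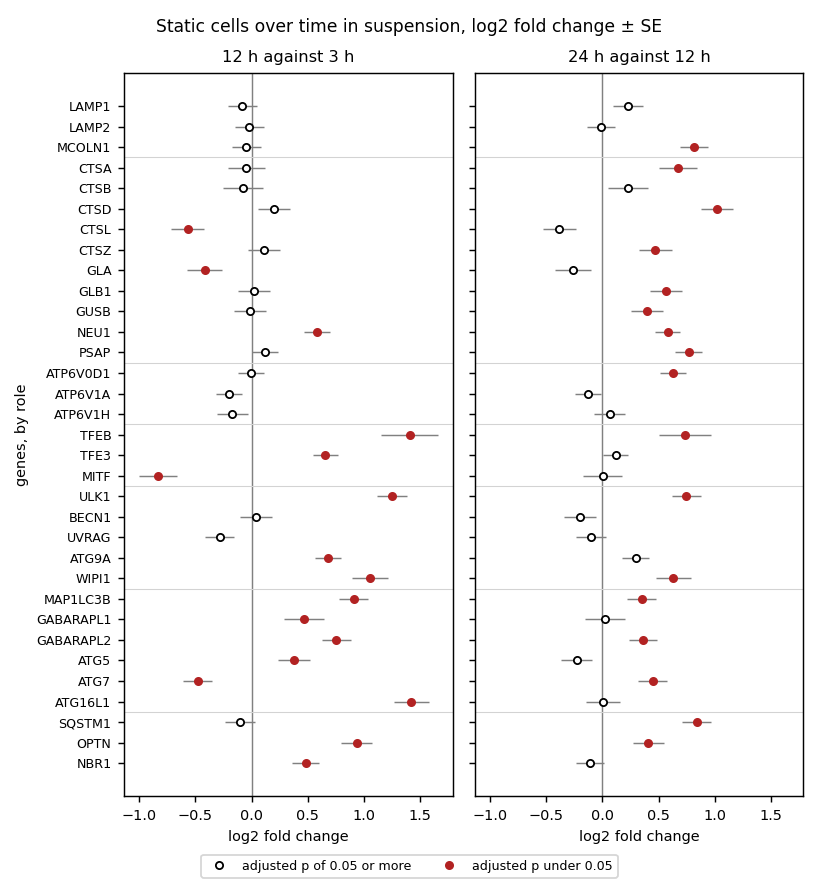
Log2 fold change in static cells (x axis) for 33 genes by role (y axis), from 3 h to 12 h (left) and from 12 h to 24 h (right), as fitted values ± 1 standard error. Filled points passed an adjusted p of 0.05; on the left most of them are autophagy genes and transcription factors, and on the right all 17 are above 0, with 7 of them hydrolases or PSAP.

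Of the 10 tested hydrolases and PSAP together, 7 rose and 0 fell between 12 h and 24 h. CTSD, cathepsin D, went from 366, 332 and 447 CPM to 626, 854 and 858 CPM (1.02, SE 0.14, adjusted p = 7.57e-05, edgeR). PSAP went from 471, 450 and 509 CPM to 726, 830 and 895 CPM (0.77, SE 0.12, adjusted p = 0.000179). In both, replicate 1 had the lowest 24 h value and still lay above every 12 h library. CTSA, the protective protein that holds NEU1 and GLB1 in a complex, went from 122, 107 and 134 CPM to 142, 190 and 251 CPM (0.67, SE 0.17, adjusted p = 0.00583). NEU1 went from 76.2, 74.1 and 82.8 CPM to 114, 121 and 116 CPM (0.58, SE 0.11, adjusted p = 0.00103), and GLB1, beta-galactosidase, from 67.7, 58.8 and 66.6 CPM to 75.2, 104 and 109 CPM (0.57, SE 0.14, adjusted p = 0.00553). All 3 genes of that complex therefore rose, NEU1 with the narrowest spread. CTSZ (0.47) and beta-glucuronidase GUSB (0.39) rose by less and lost the call in 4 and 8 of 14 alternatives (adjusted p up to 0.115 and 0.259). CTSB (0.23), CTSL (-0.38, adjusted p = 0.0595) and GLA (-0.26) did not pass. CTSD shares 41.7% of its exon bases with AC068580.4 on the same strand, and CTSA 17.7% with NEURL2 on the opposite strand.

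Of the membrane proteins, MCOLN1 went from 43.8, 38.4 and 46.8 CPM to 69.5, 83.7 and 75.3 CPM (0.81, SE 0.13, adjusted p = 0.000187). LAMP1 was at 261, 243 and 259 CPM at 12 h and 241, 317 and 344 CPM at 24 h, which overlap (0.23, SE 0.13, adjusted p = 0.194). LAMP2 had -0.01. Among V-ATPase subunits ATP6V0D1 rose, from 73.4, 73.5 and 81.5 CPM to 111, 127 and 117 CPM (0.63, SE 0.11, adjusted p = 0.000662), while ATP6V1A had -0.13 and ATP6V1H 0.07. Of these 3 subunits, only ATP6V0D1 was called, and no comparison of the pump's sectors was made.

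Set beside the promoter windows, 5 of the 6 genes with CACGTG were among the 17 that rose from 12 h to 24 h, namely MCOLN1, CTSA, ATP6V0D1, CTSD and NEU1. Of the 21 tested members whose window lacked it, 11 rose. The median log2 fold change was 0.65 with the motif and 0.35 without it. All 6 genes with the motif are lysosomal or V-ATPase genes, while those without it include autophagy genes and MiT/TFE factors. Motif and role can therefore not be told apart here. Of the hydrolases whose window lacked it, GLB1, GUSB and CTSZ rose, and CTSL and GLA did not pass. PSAP, which rose, had no window. No test was made of the difference between the medians. From 3 h to 12 h, 1 of the 6, NEU1, rose, and 12 of the 21 others did. Under shear none of the 6 passed at any time.

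The autophagy genes rose again in part. ULK1 rose by a further 0.75 (SE 0.13, adjusted p = 0.000427), so that its static level at 24 h, 250 to 307 CPM, stood above the 62.4 to 73.1 CPM at 3 h. SQSTM1, which had not passed from 3 h to 12 h, rose by 0.84 (SE 0.13, adjusted p = 0.000194). These are the same 2 genes that were lower in sheared than in static cells at 24 h, and both comparisons use the static 24 h libraries. In sheared cells at 24 h, SQSTM1 was at 494 to 565 CPM, above the 271 to 300 CPM of sheared cells at 12 h. ULK1 in sheared cells was at 121 to 216 CPM at 24 h and 119 to 138 CPM at 12 h, which overlap. WIPI1 rose by 0.63, OPTN by 0.41, GABARAPL2 by 0.36 and MAP1LC3B by 0.35 (adjusted p = 0.0444). WIPI1 lost the call in the fit of all 18 libraries as group means (adjusted p = 0.105). OPTN lost it in 5 of 14 alternatives (adjusted p up to 0.244), GABARAPL2 in 7 (up to 0.31) and MAP1LC3B in 10 (up to 0.346), and all 3 did with scaling to total counts. ATG7 rose by 0.45, back to 42.4, 40.2 and 45.1 CPM from 27.8, 32.8 and 32.4 CPM, beside 41.2, 45.7 and 42.5 CPM at 3 h, with the call lost without 12 h replicate 1 (adjusted p = 0.0913) and with scaling to total counts (0.137). ATG16L1 had 0.01, ATG5 -0.23, BECN1 -0.20, UVRAG -0.10 and NBR1 -0.11, and none of these passed. TFEB rose by 0.74 (SE 0.23, adjusted p = 0.0221), to 6.52, 9.93 and 9.98 CPM, with a call lost without either 12 h replicate 1 or 2 or 24 h replicate 2 or 3 (adjusted p 0.0807 to 0.113) and with scaling to total counts (0.0751). TFE3 had 0.12 and MITF 0.00.

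**Figure D5:**
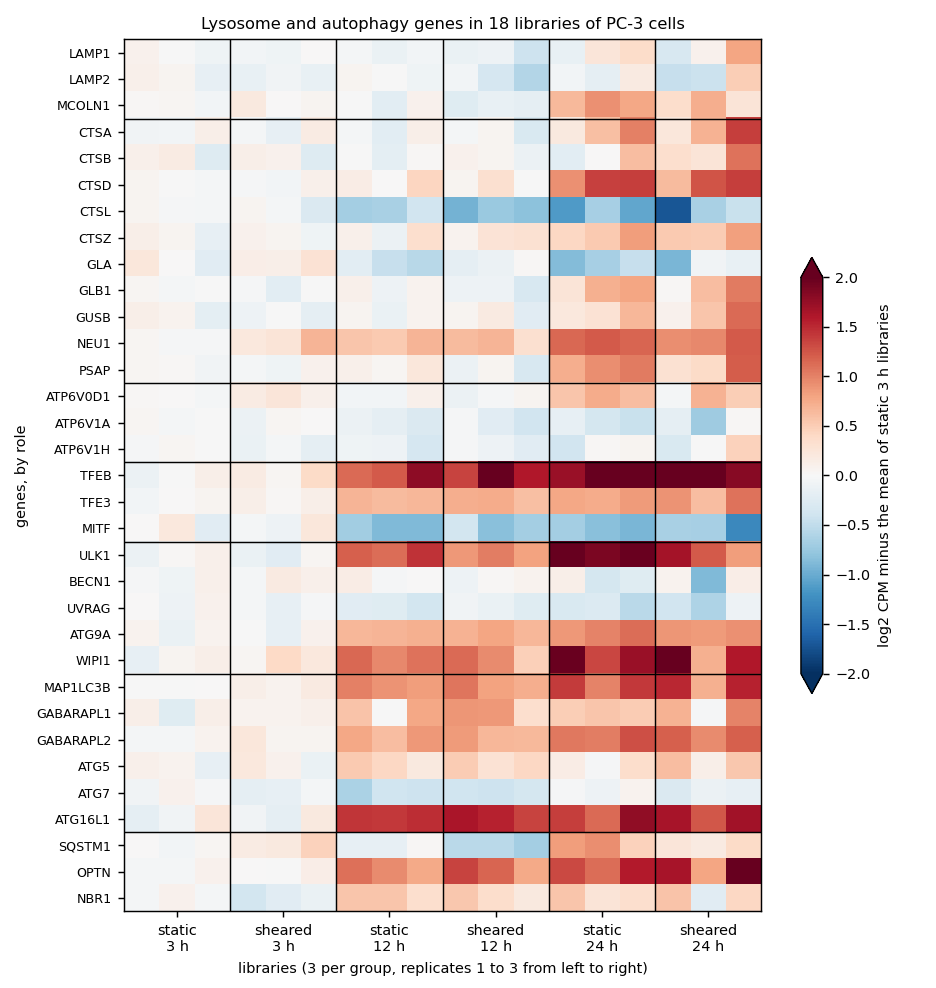
Log2 CPM (colour, minus the mean of the static 3 h libraries, saturating at 2 and -2) of 33 genes by role (rows) in the 18 libraries (columns, replicates 1 to 3 from left to right). Hydrolases such as CTSD and PSAP are red mainly at 24 h, autophagy genes such as ATG16L1 and MAP1LC3B are red at 12 h and 24 h, and CTSL and MITF are blue at both later times.

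Other lysosomal genes changed in the same comparison. Of 139 other pathway genes tested, 51 rose and 15 fell from 12 h to 24 h, with a median of 0.19. These are 36.7% and 10.8%, beside 16.9% and 15.6% of all genes. Of 32 other hydrolases, 15 rose and 3 fell, among the first NAGLU (1.27, SE 0.20, adjusted p = 0.000179) and arylsulfatase A (ARSA, 1.20). Of 18 other membrane proteins, 10 rose and 0 fell, among the first CD68 (1.27) and the tetraspanin CD63 (0.81). Of 15 tested V-ATPase genes, 5 rose and 2 fell. The higher ones include ATP6AP1 (0.83), an accessory protein, ATP6V1G1 (0.78), outside the membrane sector, and ATP6V0B (0.71), of that sector. Of 9 genes that sort hydrolases to lysosomes, 3 rose and 2 fell. GNPTAB (-0.84), which makes the mannose 6-phosphate tag, and its receptor M6PR (-0.54) were lower, and GNPTG (0.78), the other subunit of the tagging enzyme, was higher. In core autophagy machinery 11 rose and 4 fell, with WDR45 at 0.89 and ULK2, the paralog of ULK1, at -1.12. From 3 h to 12 h the 139 genes divided into 29 higher and 26 lower. These are 20.9% and 18.7%, beside 21.7% and 22.9% of all genes, so the lists as a whole did not exceed the background. The mitophagy receptors BNIP3 (1.79) and BNIP3L (1.81) and the Rag GTPases RRAGA (0.99) and RRAGD (1.94) rose there, and PPT1 (-1.21), lysosomal lipase LIPA (-1.09) and M6PR (-0.93) fell.

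Other RNAs also moved from 12 h to 24 h in static cells, and their part in the members' values was not tested. MALAT1 fell from 35.4 to 38.9 CPM to 10.8 to 24.7 CPM (-1.21, adjusted p = 0.000827), with 2 of 3 tested nuclear RNAs lower, MEG3 at 0 and the summed level of the 4 at 134 to 156 CPM and 91.3 to 166 CPM. The PC-3 marker sum went from 4836 to 5066 CPM at 12 h to 6469 to 9321 CPM at 24 h, with 4 of 7 markers higher. The prostate marker sum went from 255 to 316 CPM to 357 to 421 CPM, with TMPRSS2 (1.03) and FOLH1 (1.17) higher.

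As a share of all counts, the 35 genes together took 0.364% ± 0.00456 (SD, n = 3) in static cells at 3 h, 0.422% ± 0.0155 at 12 h and 0.529% ± 0.0179 at 24 h. In sheared cells the shares were 0.361% ± 0.0193, 0.351% ± 0.0117 and 0.438% ± 0.0293. At 12 h and at 24 h each sheared library was below each static one, at 0.338% to 0.361% against 0.405% to 0.436% and at 0.405% to 0.461% against 0.512% to 0.548%. This share has no composition factor. With scaling to total counts the median of all genes in sheared against static cells was -0.16 at 12 h and -0.18 at 24 h, and that of the members was -0.18 at both times. Under that scaling 5 members were lower in sheared cells at 12 h, adding LAMP2, GLB1, PSAP and ULK1 to SQSTM1. At 24 h 5 were lower, adding MCOLN1, PSAP and ATP6V0D1 to ULK1 and SQSTM1, and 0 were higher. The share of all genes called lower under that scaling is not given here. As the scaling moved the median of all genes down as well, these counts do not set the members apart.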

How the data were processed

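Cytosolic RNA of PC-3 cells was measured in 18 libraries. Per the submitters' processing notes, the authors used STAR and DESeq2 with GRCh38.p13; the sources used here give no versions, read counter, annotation or strand setting. The deposited table holds the authors' raw counts per NCBI Gene ID. The authors' 3 deposited tables, 1 per time, give each gene's log2 fold change for shear, p-value and adjusted p-value, per the file headers; of the members, 0, 1 and 2 passed 0.05 there at 3 h, 12 h and 24 h, and 0, 1 and 2 in both analyses.

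The 35 members, the lists and the tests were chosen with earlier results of these data known. All members are named; of each other list, up to 3 genes with the smallest adjusted p per comparison were eligible, and a few are not reported here. Symbols came from RefSeq (27745 Gene IDs), lengths from GENCODE 29. Columns were matched to samples by time, treatment and letter of the library names. The 3 h columns were read like the others.

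Counts were tested with edgeR 4.0.16 (R 4.3.3): filterByExpr (minimum count 10, total 15), TMM factors, robust legacy quasi-likelihood F test and Benjamini-Hochberg adjustment at 0.05. The shear model held 18 libraries with a block for each of 9 pools and, at each time, a term for shear (15189 genes, 6 residual degrees of freedom). The static model held 9 libraries (14804 genes, 6 residual degrees of freedom). A standard error is the absolute log2 fold change divided by the root of its F value. CPM use TMM factors, and log2 CPM a prior count of 2. Groups are apart when their CPM do not overlap. The smallest exact permutation p of 3 against 3 is 0.1, so none was computed. Per the labels, pools pair the libraries within a time. Deviations from group means correlated between same-numbered libraries at 0.0881 to 0.299 (3 h), -0.148 to 0.245 (12 h) and 0.379 to 0.504 (24 h), and at -0.385 to 0.233 otherwise. Replicates differed by more than counting error (chi-square per degree of freedom 4.44 to 143).

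Fits were tested on simulated counts with 200 changed genes: at 3 h, 12 h and 24 h, 73.1%, 73.1% and 71.6% of 2-fold shear changes were recovered, with 12 false of 153, 10 of 146 and 5 of 131 calls. For static cells 82.1% (12 h against 3 h) and 73.1% (24 h against 12 h) were recovered, with 3 false of 137 and 6 of 134. Many more genes passed in the data, both in static cells and for shear at 12 h and 24 h. The simulated shares therefore do not give the recovery in those comparisons. Alternatives were other size factors, DESeq2 1.42.0, no filter, no block, fits of fewer or more libraries and leaving out each pool or library; scaling to total counts was added after seeing the data.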

Additional observations from a re-analysis of the deposited data

Results flagged for a closer look

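The shear effect on SQSTM1 differed between times. It was 0.27 (SE 0.13) at 3 h and -0.49 (SE 0.13) at 12 h on the log2 scale, and the contrast of the 2 effects was -0.76 with an adjusted p of 0.0406 (edgeR). All 3 pairs were higher in sheared cells at 3 h and all 3 were lower at 12 h. The 3 h samples have another batch date than the 12 h samples, so time and batch cannot be told apart in this contrast. It passed in 6 of 14 alternatives and not in 8, where the adjusted p ranged up to 0.238.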

How the results depend on the processing

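No called member, nor ULK1 at 12 h or NEU1 and SQSTM1 at 3 h, changed direction in any alternative run. With DESeq2, with the other size factors and with no filter on low counts, every count of members stayed within 1.5 times its value in the report. In fits of the libraries of 1 time, with their block, 2 members were higher (NEU1, SQSTM1) and 1 lower (NBR1) at 3 h, and 0 higher and 1 lower at 24 h. With no replicate block, that is without pairing by pool, 0 members were lower at 12 h, 0 higher at 24 h and 0 differed between 12 h and 3 h; the block changed no other call. With scaling to total counts, chosen after seeing the data, 5 were lower at 12 h, 0 higher and 5 lower at 24 h, and in static cells from 12 h to 24 h 10 were higher and 3 lower. The shares of all genes called under that scaling and in the fits of 1 time are not given here. With all 18 libraries as group means 2 were lower from 3 h to 12 h. Leaving out 1 pool gave 0 to 3 members lower at 12 h (LAMP2 and ULK1 were added without 24 h replicate 3), 0 to 2 higher (OPTN was added without 24 h replicate 2) and 1 to 3 lower at 24 h, and 0 to 1 for 12 h minus 3 h. Leaving out 1 static library gave 11 to 18 higher and 0 to 1 lower from 12 h to 24 h, and 11 to 13 higher and 3 to 4 lower from 3 h to 12 h. Where no construction of the alternative explains a change, the cause was not tested. ATP6V0A1 and HEXA had few counts in all libraries, and why was not tested.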
